A study of Homo sapiens with 6 samples.

Results

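The genes described here encode the translation initiation factors of the eIF1 to eIF6 families. They are the rows of the count table whose Ensembl identifier maps to a symbol starting with EIF1, EIF2, EIF3, EIF4, EIF5 or EIF6, without the eIF2α kinases, antisense genes and pseudogenes. This names 55 of the 64299 genes of the table, namely 9 genes of eIF2 and its exchange factor eIF2B, 14 of eIF3, 16 of eIF4 with the EIF4EBP genes, 13 other factors and 3 divergent non-coding transcripts (EIF2B5-DT, EIF3J-DT and EIF5-DT). The choice used names only and no measured value, but it was made with earlier results of these data known. RNA was measured by stranded poly(A) sequencing in 6 libraries of HEK293T (the series description says HEK293), a human line of embryonic kidney origin that takes up plasmids readily. Cells of 3 libraries had received a plasmid labelled ERbeta and cells of 3 an empty vector, EV_Ctrl, both with the lipid reagent FuGene 6. The labels do not define ERbeta, which is taken here from background knowledge as an artificial β-sheet protein sent into the endoplasmic reticulum (ER) and not as estrogen receptor beta, and its own mRNA was not analysed here. The labels give no time after transfection and no clone.

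Initiation factors bring the initiator tRNA, the small ribosomal subunit and the mRNA together. eIF2 carries the initiator tRNA as a GTP-bound complex, eIF5 triggers its GTP hydrolysis and eIF2B recharges it, while stress kinases, among them the ER sensor PERK, phosphorylate the α subunit of eIF2 and so block eIF2B. eIF3 is the large scaffold on the small subunit, and the eIF4 factors bind the mRNA cap and unwind the leader, with cap binding held back by the 4E-BP proteins. eIF1, eIF1A, eIF5 and eIF5B select the start codon and join the subunits, and this control acts largely on proteins and their phosphorylation, which mRNA counts do not show.

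Promoter elements of the ER stress response were searched in the 250 bases before each RefSeq gene start (GRCh38.p14), on both strands. Of the 55 genes, 47 had an entry, with 64 windows in all. Matches below are counted per gene while the background is a share of windows, so they are not directly comparable. The ER stress element ERSE (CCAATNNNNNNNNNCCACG), which 0.074% of all 35116 such windows hold, was found before the RefSeq start of 1 of the 47, EIF2A. The C/EBP-ATF response element CARE (searched as TGATGNAA, in 3.14% of all windows) was found before 1, at an internal start of EIF4E3. The elements UPRE (TGACGTG, 1.68% of windows) and CRE (TGACGTCA, 1.65%) were found before 0 of them. A plain CCAAT box, the letters with which ERSE begins, was in 32.0% of all windows and before 18 of the 47 genes, among them EIF5. The stretches of 30 bases that hold these matches for EIF2A, EIF4E3 and EIF5 are shown because the first pair are the stress-element matches among the genes and EIF5 is the gene with the smallest p-value. Capitals mark the matched letters, and a match is a description of letters, not a site in use. All 4 stretches lie inside the genes as GENCODE 29 draws them, 571 and 603 bases after its first base of EIF5, 26 after that of EIF2A and 25625 after that of EIF4E3, since GENCODE 29 starts these genes farther upstream than the RefSeq entries used.
EIF2A, chr3:150546704-150546733, plus strand: gaaacaCCAATTCGCTGTCTCCACGcatga
EIF4E3, chr3:71729119-71729148, minus strand: ccatgttgccatggtgaTGATGAAAgttgg
EIF5, chr14:103334115-103334144, plus strand: cgtcgcaagcgaaCCAATgacgagcgagct
EIF5, chr14:103334147-103334176, plus strand: ggcaggcctccagCCAATgggcagtgaggc

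Total counts per library ran between 13149304 and 16531368 for ERbeta and between 6833442 and 27101644 for EV_Ctrl, with EV_Ctrl 2 the deepest. The libraries did not separate by group: on principal component 1 (60.8% of variance, from log2 CPM, the counts per 1000000 counted reads) ERbeta 1 to 3 lay at -42.1 to -13.9, EV_Ctrl 2 at -13.9 and EV_Ctrl 1 and 3 at 44.7 and 41.5. GC content moved with this split. The median of the genes with at least 56.4% GC minus that of the genes with at most 42.2% GC, in log2 CPM around each gene's mean, was -0.65 to -0.057 across ERbeta, 0.51 and 0.43 in EV_Ctrl 1 and 3, and -0.11 in EV_Ctrl 2. The markers KRT8, KRT18, VIM and CDH2 were present (summed level 1648 to 1788 CPM in ERbeta and 1614 to 1709 CPM in EV_Ctrl). Of 10 markers of blood, endothelium, fibroblasts and liver, 9 did not reach the filter on low counts, CD3E and HBB had 0 reads, and COL1A1 was at 13.5 to 22.2 CPM in ERbeta and 19.2 to 31.0 CPM in EV_Ctrl. In bulk RNA, fewer cells with a transcript and less transcript per cell cannot be told apart.

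No initiation factor differed between ERbeta and empty vector beyond the spread of the libraries once all genes were considered. By the quasi-likelihood F test of edgeR, with p-values adjusted over all genes after Benjamini and Hochberg, 0 of 51 tested factors passed an adjusted p of 0.05, as did 0 of all 16243 genes (0.0% called). The other 4 of the 55 genes, EIF4E1B, EIF4EBP3, EIF1AY and EIF2B5-DT, did not reach the filter on low counts. Of the 51, 34 had a positive log2 fold change (66.7%, against 48.3% of all genes), and their median was 0.080, against -0.012 over all genes. With scaling by library size only, 22 of 51 were positive and the median was -0.017, against -0.10 over all genes. At an unadjusted p under 0.05 there were 6 factors, all higher in ERbeta (EIF5, EIF3J, EIF1AX, EIF2S1, EIF2A and EIF4G3), which is 11.8% of them against 9.54% of all genes higher and 2.88% lower. DESeq2 (0.431% of all genes higher, 0.00616% lower) and limma-voom also called 0 factors. The groups did not overlap for 6 factors, with ERbeta above for 5 (EIF5, EIF3J, EIF2S1, EIF4G3 and EIF3D) and below for 1 (EIF2B1). These are 9.8% and 1.96% of the 51 factors, against 10.2% higher and 8.48% lower of all genes, so the share of factors without overlap was close to the background on the high side and below it on the low side. In what follows, levels are TMM-normalised CPM and differences are log2 fold changes of ERbeta over EV_Ctrl with their standard error (SE).

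**Figure D1:**
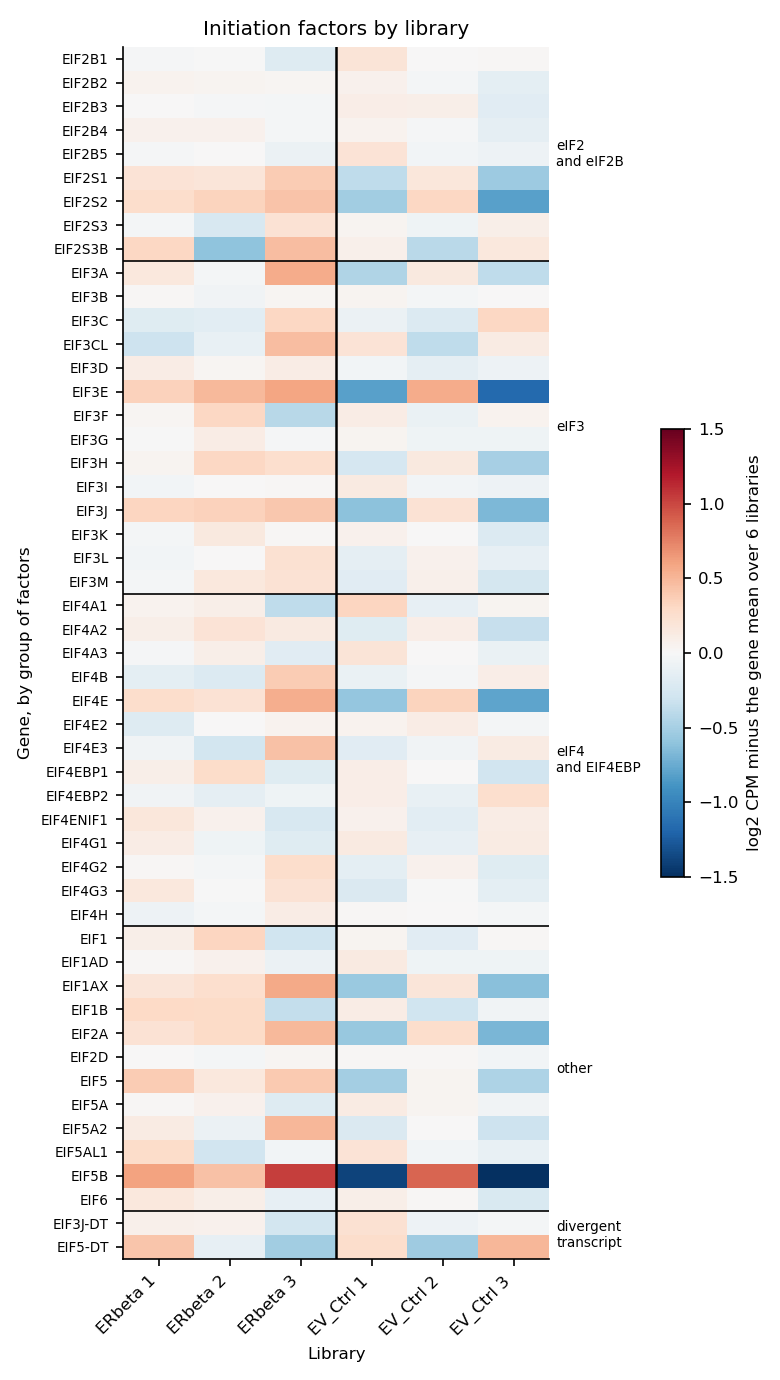
Each row is 1 of the 51 tested genes, in 5 groups, and each column a library, with the 3 ERbeta libraries left of the line and the 3 EV_Ctrl libraries right of it. Colour gives log2 CPM minus the gene's mean over the 6 libraries, with the scale ending at ±1.5. A subset of rows, EIF5B and EIF3E most of all, is low in EV_Ctrl 1 and 3 and high in EV_Ctrl 2 and the ERbeta libraries, while most rows are pale throughout.

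None of the 3 subunits of eIF2 passed, and their values are given one by one. EIF2S1, the α subunit that the stress kinases phosphorylate (chromosome 14, 67359997 to 67386516, plus strand, GENCODE 29 on GRCh38), was at 129, 127 and 145 CPM in ERbeta 1, 2 and 3, and at 85.6, 126 and 76.6 CPM in EV_Ctrl 1, 2 and 3. The lowest ERbeta library lay just above EV_Ctrl 2 and well above the other controls. Its log2 fold change was 0.47 ± 0.19, with an adjusted p of 0.397 in edgeR, and it was 0.13 with GC correction and 0.73 without EV_Ctrl 2. EIF2S2, the β subunit (chromosome 20, 34088298 to 34112332, minus strand), was at 164, 173 and 183 CPM in ERbeta and at 95.2, 169.7 and 77.5 CPM in EV_Ctrl. EV_Ctrl 2 lay inside the ERbeta range and the fold change was 0.60 ± 0.27 (adjusted p 0.399 in edgeR), the same 0.60 with GC correction and 1.02 without EV_Ctrl 2. EIF2S3, the γ subunit that binds GTP and the initiator tRNA, was at 334, 287 and 394 CPM in ERbeta against 350.2, 326 and 361 CPM in EV_Ctrl. The groups overlapped fully for this subunit and the fold change was -0.032 ± 0.13. EIF2S3B, a close copy of EIF2S3 with which reads may be shared, was at 3.71 to 7.78 CPM in ERbeta and 4.26 to 6.27 CPM in EV_Ctrl.

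The 5 genes of eIF2B, the exchange factor that eIF2 phosphorylation blocks, varied little between libraries. EIF2B1 to EIF2B5 encode its α, β, γ, δ and ε subunits, of which ε is the catalytic one. EIF2B1 was at 84.2, 84.9 and 75.0 CPM in ERbeta and 97.8, 85.7 and 86.6 CPM in EV_Ctrl. It was the only factor whose ERbeta libraries all lay below the controls, by less than 1 CPM between the nearest libraries, and its log2 fold change was -0.14 ± 0.11 (edgeR adjusted p 0.56). EIF2B5 was at 58.2, 59.2 and 55.6 CPM in ERbeta and 67.9, 57.3 and 55.9 CPM in EV_Ctrl, a fold change of -0.064 ± 0.12 whose sign turned with GC correction (0.056). EIF2B2 averaged 59.5 ± 0.702 CPM over the ERbeta libraries and 56.5 ± 4.22 CPM over the EV_Ctrl libraries (mean ± SD, n = 3 for each), with a fold change of 0.076 ± 0.10. Fold changes were -0.024 ± 0.11 for EIF2B3 and 0.061 ± 0.10 for EIF2B4. Over the 9 genes of eIF2 and eIF2B, 5 were positive and the median log2 fold change was 0.061.

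Among the 14 eIF3 genes the spread lay in a few subunits. EIF3J, a loosely bound subunit at the decoding site (chromosome 15, 44537057 to 44563029, plus strand), was at 115, 117 and 122 CPM in ERbeta and at 59.6, 106 and 57.3 CPM in EV_Ctrl. All ERbeta libraries lay above EV_Ctrl 2, and EV_Ctrl 1 and 3 lay much lower. The fold change was 0.66 ± 0.23, with an adjusted p of 0.397 in edgeR and 0.243 in DESeq2, and it was 0.31 with GC correction and 1.02 without EV_Ctrl 2. EIF3E, chosen after its values were seen, encodes a subunit of the outer arm and lies on chromosome 8 (108201216 to 108435333, minus strand). It was at 234, 257 and 277 CPM in ERbeta and at 104, 270.4 and 81.8 CPM in EV_Ctrl. EV_Ctrl 2 stood 2.91 times above the mean of the other controls and within the ERbeta range. The fold change was 0.74 ± 0.41 (edgeR adjusted p 0.45), and it was 0.40 with GC correction, 1.47 without EV_Ctrl 2 and -0.077 against EV_Ctrl 2 alone.

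EIF3A, the largest scaffold subunit, was at 484, 425 and 634 CPM in ERbeta and 315, 479 and 331 CPM in EV_Ctrl, a fold change of 0.45 ± 0.20 (edgeR adjusted p 0.401) that was 0.11 against EV_Ctrl 2 alone. EIF3H was at 125, 151 and 146 CPM in ERbeta and 102, 135 and 86.6 CPM in EV_Ctrl, with 0.38 ± 0.17, or 0.11 with GC correction and 0.59 without EV_Ctrl 2. For both genes EV_Ctrl 2 lay inside the ERbeta range. EIF3D, a subunit that can itself bind the cap of some mRNAs, showed another pattern, at 314, 298 and 313 CPM in ERbeta and 284, 265 and 276 CPM in EV_Ctrl. Here all 3 controls were alike and all lay below ERbeta, with a fold change of 0.17 ± 0.086 that did not pass (edgeR adjusted p 0.434), or 0.32 with GC correction. EIF3B, a core scaffold subunit, was at 354, 336 and 356 CPM in ERbeta and 361, 342 and 352 CPM in EV_Ctrl. Its fold change was -0.012 ± 0.085 and its sign turned with GC correction (0.17).

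The remaining eIF3 genes EIF3C, EIF3CL, EIF3F, EIF3G, EIF3I, EIF3K, EIF3L and EIF3M had log2 fold changes between -0.020 and 0.23. Of all 14 genes 10 were positive, with a median of 0.11, or 0.24 with GC correction, against -0.012 and 0.047 over all genes. EIF3C and EIF3CL are near-identical copies on chromosome 16, and reads that fit both may have been dropped or split, so their 18.7 and 4.22 mean CPM in ERbeta are uncertain. Per kilobase of main transcript (RPKM), the lowest of the other 12 genes was EIF3F, at 17.7 ± 4.38 RPKM in ERbeta and 17.9 ± 1.34 RPKM in EV_Ctrl. EIF3K was highest, at 461 ± 28.8 RPKM in ERbeta and 434 ± 41.2 RPKM in EV_Ctrl. Below it EIF3G, EIF3E, EIF3I, EIF3D, EIF3L and EIF3B had means of 114 to 179 RPKM in ERbeta, neighbours that mostly do not differ beyond their spread. In EV_Ctrl the same genes other than EIF3E had means of 115 to 172 RPKM, and EIF3E was at 98.6 ± 66.8 RPKM. These levels rest on the transcript length assigned to each gene, which is longest for EIF3F. The level of EIF3L is uncertain, as 41.1% of its exon bases are shared on the same strand with other GENCODE 29 genes.

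**Figure D2:**
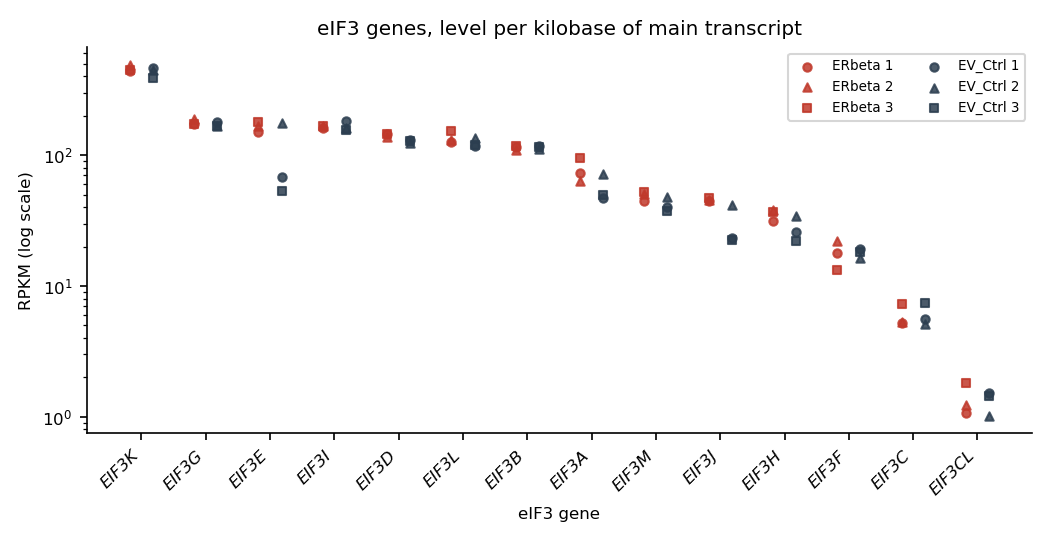
The y axis (log scale) gives the level of the 14 eIF3 genes in RPKM, with ERbeta libraries in red left of EV_Ctrl libraries in dark blue and a marker shape per library number. EIF3E, EIF3J, EIF3A and EIF3H are lower in EV_Ctrl 1 and 3. EV_Ctrl 2 stands within the ERbeta range for EIF3E, EIF3A and EIF3H, and just below it for EIF3J.

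Of the cap-binding genes, EIF4E differed most between libraries. EIF4E, the cap-binding protein (chromosome 4, 98871684 to 98930637, minus strand), was at 38.2, 36.8 and 46.5 CPM in ERbeta and at 21.2, 40.0 and 18.4 CPM in EV_Ctrl. EV_Ctrl 2 again lay within the ERbeta range and the fold change was 0.59 ± 0.28 (edgeR adjusted p 0.409), or 0.25 with GC correction and 1.04 without EV_Ctrl 2. EIF4E2, a cap-binding homologue that represses translation, was at 79.1, 91.2 and 93.9 CPM in ERbeta and 93.9, 98.2 and 89.1 CPM in EV_Ctrl, with -0.091 ± 0.11. EIF4E3, with the CARE letters shown above, was at 30.9, 26.6 and 43.7 CPM in ERbeta and 28.5, 31.0 and 35.1 CPM in EV_Ctrl. The groups overlapped, and the fold change was 0.095 ± 0.19, or -0.44 with GC correction.

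The 4E-BP genes encode the proteins that hold back EIF4E, and with all 6 libraries neither EIF4EBP1 nor EIF4EBP2 passed. EIF4EBP1, a target of ATF4 in earlier work on other cells, was at 52.1, 59.1 and 43.3 CPM in ERbeta and 52.4, 49.2 and 40.3 CPM in EV_Ctrl. The libraries of the groups overlapped and the log2 fold change was 0.13 ± 0.16 (edgeR adjusted p 0.727), or 0.40 with GC correction (adjusted p 0.418). With GC correction and without EV_Ctrl 2 it was 0.53 and passed in edgeR (adjusted p 0.0134). That fit called 9.15% of all genes higher and 2.31% lower. EIF4EBP2 was at 172, 163 and 170.1 CPM in ERbeta and 191, 165 and 212 CPM in EV_Ctrl, with -0.17 ± 0.12. This was the lowest fold change among the 51 factors and it was 0.036 against EV_Ctrl 2 alone. EIF4EBP3 had 8 reads in all 6 libraries together. In GENCODE 29, 73.4% of its exon bases are shared with the readthrough gene ANKHD1-EIF4EBP3.

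Scaffold and helicase genes of eIF4 are given next. EIF4G3, a paralog of the scaffold EIF4G1, was at 365, 328 and 380.4 CPM in ERbeta and 283, 327 and 296 CPM in EV_Ctrl. The lowest ERbeta library and EV_Ctrl 2 nearly touched, and the fold change was 0.24 ± 0.10 (edgeR adjusted p 0.397), or 0.13 against EV_Ctrl 2 alone. EIF4G1 was at 649, 572 and 530 CPM in ERbeta and 657, 549.6 and 653 CPM in EV_Ctrl, a fold change of -0.087 ± 0.12 that was 0.097 with GC correction. EIF4G2 (DAP5), which lacks the EIF4E-binding part, had the highest CPM of the factors, 1104 ± 127 in ERbeta and 979 ± 93.3 in EV_Ctrl. Per length it was at 561 ± 64.3 RPKM in ERbeta and 497 ± 47.4 RPKM in EV_Ctrl. That level rests on the 1969 bases assigned as its main transcript, so its rank per length is uncertain. The fold change of EIF4G2 was 0.17 ± 0.12, and -0.10 with GC correction. EIF4A2, an RNA helicase, was at 275, 298 and 284 CPM in ERbeta and 229, 277 and 204 CPM in EV_Ctrl. Its fold change was 0.27 ± 0.13, and -0.12 with GC correction.

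EIF4A1, the main helicase of the cap complex, was counted at only 13.6 to 18.8 CPM in ERbeta and 16.3 to 22.2 CPM in EV_Ctrl. In GENCODE 29, 48.6% of its exon bases are shared on the same strand with other genes, among them the readthrough SENP3-EIF4A1. Its level in this table is therefore uncertain. EIF4A3, EIF4B, EIF4H and EIF4ENIF1, a helicase of the exon junction complex, helicase helpers and a transporter of EIF4E, had fold changes between -0.059 and 0.039. EIF4E1B, an oocyte homologue, had 5 reads in all. Of the 14 tested eIF4 and EIF4EBP genes 9 were positive and the median was 0.023.

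The clearest single factor was EIF5, the GTPase-activating protein of eIF2. EIF5 (chromosome 14, 103333544 to 103345025, plus strand) was at 308, 264 and 309 CPM in ERbeta 1, 2 and 3 and at 165, 243 and 172 CPM in EV_Ctrl 1, 2 and 3. Every ERbeta library lay above every control, EV_Ctrl 2 included. The log2 fold change was 0.60 ± 0.16, with an unadjusted p of 0.00666 and an adjusted p of 0.397 in edgeR. It was 0.28 against EV_Ctrl 2 alone, 0.81 without EV_Ctrl 2 and 0.43 with GC correction, and 0.50 to 0.81 over the fits that leave out 1 library. In the authors' deposited table EIF5 was the only one of 47 factors with an adjusted p there to fall under 0.05, at a log2 fold change of 0.52 and an adjusted p of 0.0097. That table calls 373 genes higher (3.35% of those with an adjusted p) and 48 lower (0.43%), and the model behind it is not given in the sources used here. DESeq2 run here gave EIF5 an adjusted p of 0.151.

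EIF5B, chosen after its values were seen, had the widest spread. The gene encodes the GTPase that joins the ribosomal subunits (chromosome 2, 99337353 to 99401326, plus strand). It was at 220.4, 197 and 297 CPM in ERbeta and at 55.4, 265 and 49.5 CPM in EV_Ctrl. EV_Ctrl 2 stood 5.06 times above the mean of the other controls and within the ERbeta range. The fold change was 0.94 ± 0.61 (edgeR adjusted p 0.509), 2.19 without EV_Ctrl 2 and -0.15 against EV_Ctrl 2 alone. EIF1AX, the X-linked eIF1A gene, was at 234, 246 and 306 CPM in ERbeta and 139.9, 234 and 134 CPM in EV_Ctrl. ERbeta 1 and EV_Ctrl 2 were level, and the fold change was 0.63 ± 0.23 (edgeR adjusted p 0.397), or 0.059 with GC correction and 0.94 without EV_Ctrl 2.

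EIF2A, a factor of alternative initiation that is not part of eIF2, was at 65.0, 68.5 and 78.7 CPM in ERbeta and 37.8, 67.6 and 34.9 CPM in EV_Ctrl. EV_Ctrl 2 lay within the ERbeta range, and the fold change was 0.59 ± 0.25 (edgeR adjusted p 0.397), or 0.29 with GC correction and 0.97 without EV_Ctrl 2. The ERSE letters shown above lie 59 to 77 bases before the start of EIF2A and 214 to 232 bases before that of SERP1, which is transcribed the other way and encodes the ER membrane protein RAMP4. SERP1, named after the match was found, was at 74.5, 70.3 and 78.2 CPM in ERbeta and 52.5, 64.7 and 52.7 CPM in EV_Ctrl. For SERP1 the libraries did not overlap, with a fold change of 0.39 ± 0.12 (edgeR adjusted p 0.397) that was 0.29 with GC correction.

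Fold changes nearer 0 with all 6 libraries were found for the remaining factors, except EIF5A2. EIF1, which guards start-codon choice, was at 395, 463 and 302 CPM in ERbeta and 381, 328 and 374 CPM in EV_Ctrl, with 0.099 ± 0.16. EIF6, which keeps the ribosomal subunits apart, was at 90.4, 86.2 and 74.5 CPM in ERbeta and 86.0, 82.2 and 68.9 CPM in EV_Ctrl, with 0.083 ± 0.13. EIF6 was at 0.26 with GC correction, and passed at 0.38 (edgeR adjusted p 0.046) when EV_Ctrl 2 was left out as well. That last fit called 9.15% of all genes higher and 2.31% lower. EIF5A, the hypusine-bearing factor that also acts in elongation, was at 551, 566 and 475 CPM in ERbeta and 592, 558 and 522 CPM in EV_Ctrl, with -0.071 ± 0.11. Its paralog EIF5A2 was at 12.8, 11.1 and 16.6 CPM in ERbeta and 10.1, 11.8 and 9.49 CPM in EV_Ctrl. The EIF5A2 fold change of 0.35 ± 0.18 was -0.26 with GC correction. EIF1B, EIF1AD, EIF2D and EIF5AL1, the last a close copy of EIF5A, lay between -0.0072 and 0.19. Of the divergent transcripts EIF3J-DT was at -0.061 ± 0.16 and EIF5-DT at -0.013 ± 0.40, and EIF2B5-DT was at or below 0.432 CPM in every library. EIF1AY had 0 reads.

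**Figure D3:**
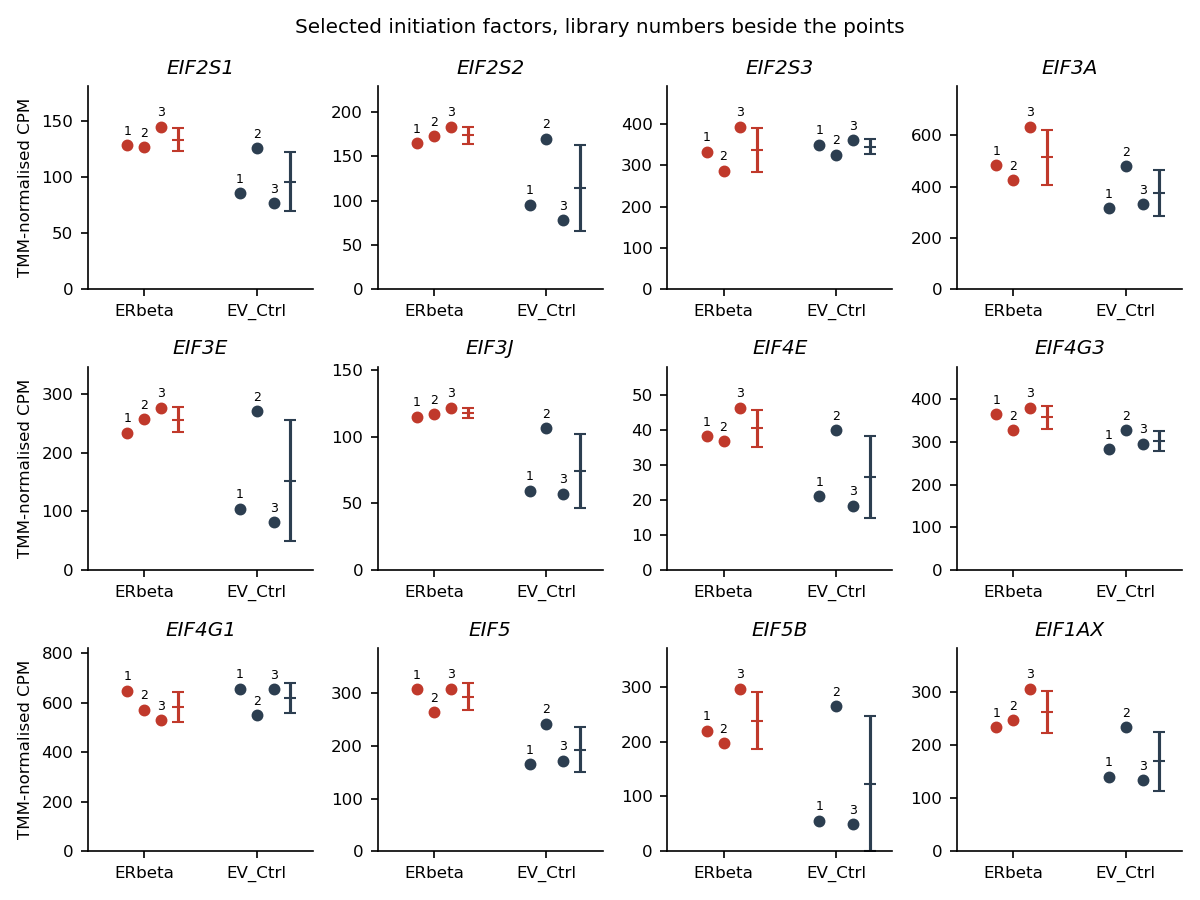
Points give TMM-normalised CPM of 12 factors in each library, numbered, with ERbeta in red left of EV_Ctrl in dark blue, and bars give the mean ± SD of 3 libraries. EV_Ctrl 2 stands beside the ERbeta libraries for EIF2S2, EIF3E, EIF4E and EIF5B, below them all for EIF5, EIF3J and EIF4G3, and among them for EIF2S3 and EIF4G1.

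A single control library decided how many factors were called. Without EV_Ctrl 2, 12 of 51 factors passed in edgeR and all 12 were higher in ERbeta, while 13.5% of all genes were called higher and 0.775% lower. These were EIF2S1 and EIF2S2 of eIF2, EIF3A, EIF3E, EIF3H and EIF3J of eIF3, EIF4E and EIF4A2 of eIF4, and EIF5, EIF5B, EIF1AX and EIF2A. In this fit EIF5B was at 2.19 (adjusted p 1.85e-05), EIF3E at 1.47 (5.3e-05), EIF3J at 1.02 (0.000183), EIF2S2 at 1.02 (0.000309) and EIF4E at 1.04 (0.000814). Their levels in EV_Ctrl 2 are those given above, mostly within the ERbeta range. The fit thus leaves out the control nearest to ERbeta for these factors. Its p-values are a description and no support for a difference. Against EV_Ctrl 2 alone, a fit that has to take the scatter of the ERbeta libraries for this lone control as well, 0 factors were called and the median over the 51 was 0.056. EV_Ctrl 2 lay within the ERbeta range for 37 of the 51 factors (72.5%, against 60.5% of all genes). It stood more than 0.5 log2 units above the mean of EV_Ctrl 1 and 3 for 11 of them (21.6%, against 13.3% of all genes). Leaving out any other library gave 0 calls among the factors.

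**Figure D4:**
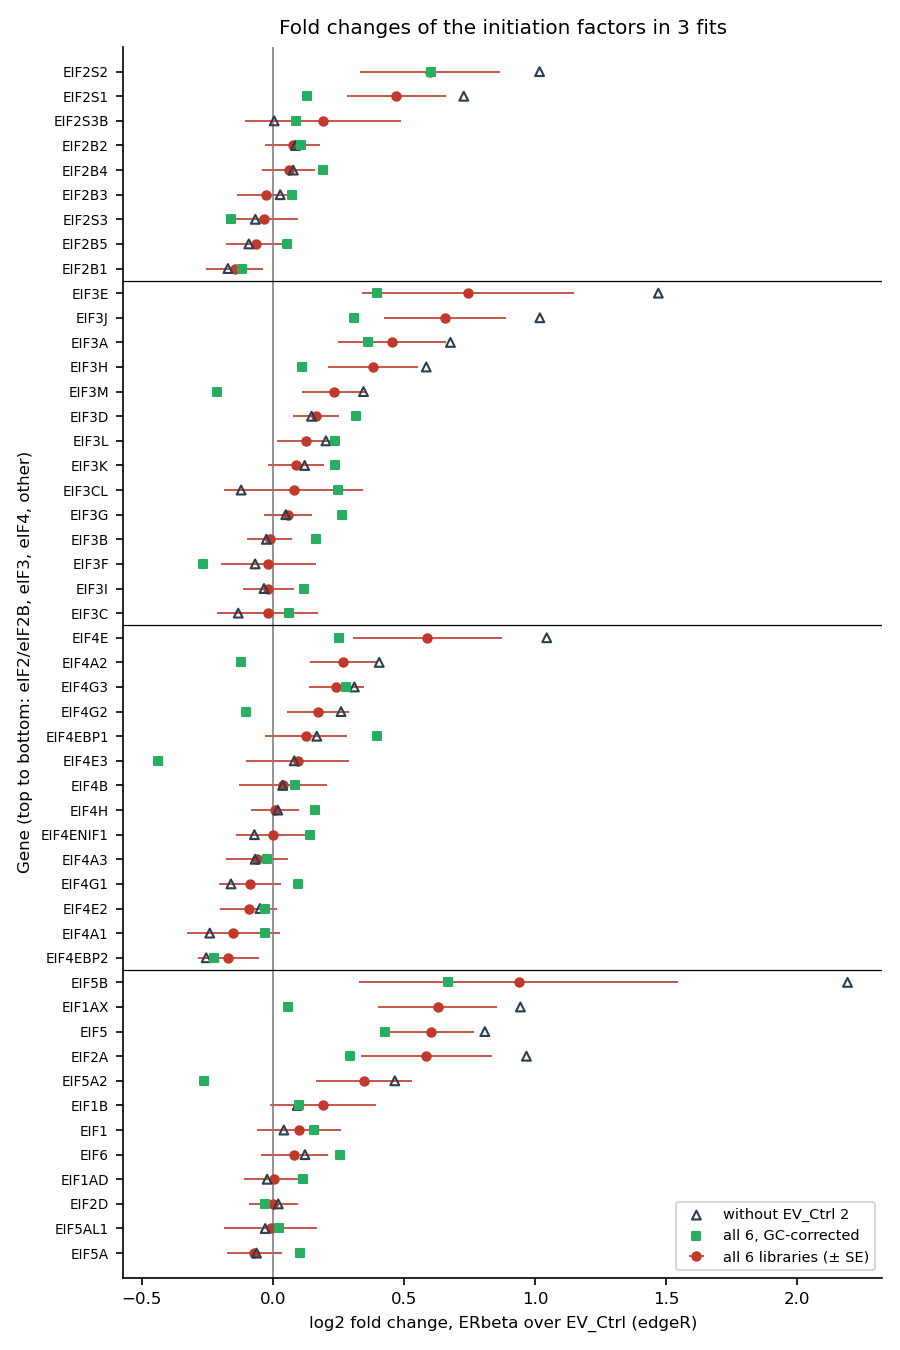
For 49 tested factors (the divergent transcripts left out) the x axis gives the log2 fold change of ERbeta over EV_Ctrl from edgeR with all 6 libraries (red points, ± SE), without EV_Ctrl 2 (open triangles) and with GC correction (green squares). EIF5B moves from 0.94 to 2.19 without EV_Ctrl 2, and 14 of the 49 change sign with GC correction, among them EIF3M, EIF4A2, EIF4E3, EIF4G2 and EIF5A2.

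Fold changes of the factors followed GC content. Across the 51 factors the log2 fold change had a Pearson r of -0.53 with the GC content of the longest transcript (Spearman -0.53), and across 16091 genes -0.55 (Spearman -0.61), as descriptions across genes that share the same 6 libraries. Against EV_Ctrl 2 alone r was -0.15 across the factors and -0.20 across all genes. The 25 factors below the median GC content of 45.8% had a median log2 fold change of 0.27 and held all 12 factors called without EV_Ctrl 2. The 26 factors at or above it had a median of 0.0062 and held 0 of them. With a GC correction per library 0 factors were called (0.137% of all genes higher and 0.0% lower). The medians were then 0.059 for the GC-poorer and 0.13 for the GC-richer factors, against 0.047 over all genes. Of the 51 factors 37 were positive, against 9601 of 16091 genes. The correlation with GC content was then 0.33 across the factors (Spearman 0.30) and 0.021 across all genes (Spearman 0.033), and 15 of the 51 factors had the other sign than without the correction.

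With GC correction and without EV_Ctrl 2 as well, 14 factors were called, 13 higher and 1 lower, where 9.15% of all genes were called higher and 2.31% lower. EIF5B (1.60), EIF2S2 (1.04), EIF3E (0.83), EIF3A (0.55), EIF5 (0.54), EIF4E (0.50), EIF2A (0.50) and EIF3J (0.46) were called in both fits. EIF2S1 (0.21), EIF3H (0.18), EIF1AX (0.11) and EIF4A2 (-0.16) were no longer called. EIF4EBP1 (0.53), EIF3D (0.37), EIF3L (0.37), EIF4G3 (0.38) and EIF6 (0.38) were called higher and EIF4E3 (-0.63) lower.

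**Figure D5:**
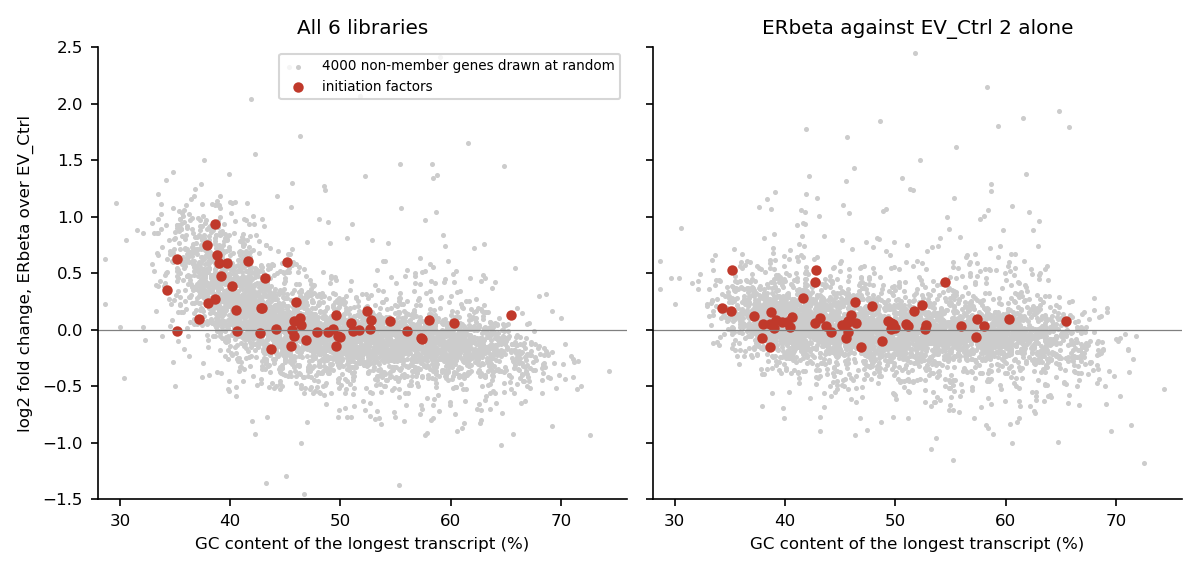
The y axes give the log2 fold change of ERbeta over EV_Ctrl against the GC content of the longest transcript (%), for the 51 tested factors (red) and 4000 other genes drawn at random (grey), with genes beyond the axes not shown. With all 6 libraries (left) fold changes fall with GC content, r = -0.53 across the factors, and against EV_Ctrl 2 alone (right) r is -0.15.

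Shares of paralogs within a library do not depend on scaling between libraries, but can carry a library's GC trend. GC content was 39.0% for EIF4E and 46.9% for EIF4E2, and 46.0% for EIF4G3 and 57.4% for EIF4G1. It was 34.3% for EIF5A2 and 57.3% for EIF5A, and 38.65% for EIF4A2 and 49.6% for EIF4A1. In these pairs, and in EIF1B (42.8%) with EIF1 (46.35%), the GC-poorer paralog had a larger mean share in ERbeta than in EV_Ctrl. For EIF4EBP1 (65.5%) with EIF4EBP2 (43.7%) it was the GC-richer. Effects of GC content on shares were not tested. The shares were compared for 6 sets of paralogs by an exact two-sided permutation test. Its smallest possible p with 3 against 3 libraries is 0.1, so no share could pass 0.05. The groups overlapped in all 6. EIF4E2 took 67.4%, 71.2% and 66.9% of the summed EIF4E and EIF4E2 counts in ERbeta, and 81.6%, 71.0% and 82.9% in EV_Ctrl (exact permutation p 0.2, adjusted 0.45). EV_Ctrl 2 again lay with ERbeta. EIF4G3 took 38.1% ± 3.23 of EIF4G1 and EIF4G3 in ERbeta and 32.9% ± 3.87 in EV_Ctrl (exact permutation p 0.3). EIF5A2 took 2.52% ± 0.762 of EIF5A and EIF5A2 in ERbeta and 1.85% ± 0.206 in EV_Ctrl (exact permutation p 0.2), and EIF4EBP1 took 23.4% ± 3.19 of the EIF4EBP counts in ERbeta and 20.2% ± 3.72 in EV_Ctrl (exact permutation p 0.4). EIF1B took 6.71% ± 0.658 of EIF1 and EIF1B in ERbeta and 6.36% ± 0.434 in EV_Ctrl (exact permutation p 0.5). EIF4A2 took 94.4% ± 0.902 of EIF4A1 and EIF4A2 in ERbeta and 92.5% ± 1.73 in EV_Ctrl (exact permutation p 0.3), a share to which the uncertain EIF4A1 count contributes. When 1 library at a time was left out, the difference ran from -13.7 to -7.80 percentage points for EIF4E2, 3.34 to 7.42 for EIF4G3, 0.246 to 0.976 for EIF5A2, 1.13 to 4.79 for EIF4EBP1, -0.0328 to 0.587 for EIF1B and 1.31 to 2.94 for EIF4A2. A share within eIF2 was chosen after the values were seen. EIF2S2 took 33.0%, 37.6% and 31.8% of EIF2S2 and EIF2S3 in ERbeta and 21.4%, 34.3% and 17.7% in EV_Ctrl (exact permutation p 0.3). GC content was 45.2% for EIF2S2 and 42.7% for EIF2S3. Here too the GC-richer gene had the larger mean share in ERbeta than in EV_Ctrl.

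Other genes of translation were set beside the factors. Of 28 partners and regulators of initiation 0 passed in edgeR, 19 were positive and the median log2 fold change was 0.092. The smallest p-values among them were those of LARP4, a poly(A)-binding protein, at 0.98 ± 0.32, ABCE1, the ribosome recycling ATPase, at 0.88 ± 0.32, and PAIP1, a partner of poly(A)-binding protein and eIF4A, at 0.38 ± 0.15, each with an edgeR adjusted p of 0.397. With GC correction LARP4 was at 0.46, ABCE1 at 0.52 and PAIP1 at 0.28. LARP4 was at 164 CPM on average in ERbeta, against 82.7 CPM in EV_Ctrl and 127 CPM in EV_Ctrl 2. Of 22 tested elongation and termination factors 0 passed, 12 were positive and the median was 0.017. EEF1G, also listed, did not reach the filter on low counts. It was at 0 CPM in every library but EV_Ctrl 3 (0.087 CPM), so its level in these counts is uncertain. The smallest p-values among the tested ones were those of EEF1E1, HBS1L and ETF1. EEF1E1, a scaffold of the multisynthetase complex, was at 0.62 ± 0.23, and HBS1L, a ribosome rescue GTPase, at 0.61 ± 0.25. ETF1, the release factor that reads stop codons, was at 0.34 ± 0.14. With GC correction EEF1E1 was at 0.16, HBS1L at 0.21 and ETF1 at 0.27. EEF2K, next by p-value, was lower in ERbeta, at -0.45 ± 0.19 (edgeR adjusted p 0.397), or -0.32 with GC correction. Without EV_Ctrl 2, 11 partners were called higher and 0 lower, and 4 elongation and termination factors higher and 1 lower, where 13.5% of all genes were called higher and 0.775% lower.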

How the data were processed

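The authors deposited raw whole-number counts of reads per gene for 6 libraries. Per the submitters' processing notes TopHat2, featureCounts, DESeq2 and hg38 were used, and the sources used here give no versions, annotation or strand setting, so reads of overlapping genes are uncertain. A second deposited table holds, per the file headers, DESeq2's mean signal, log2 fold change, standard error and Wald statistic (scores) and p-values, and was only read beside the results. A symbol was found for 40995 of 64299 identifiers, and no read lay in entries that name no gene.

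Genes were filtered with filterByExpr (minimum count 10, minimum total 15), scaled by TMM and tested with edgeR 4.0.16 (R 4.3.3), with no covariate beside the group, over 16243 genes, with Benjamini-Hochberg adjustment at 0.05. CPM are counts per 1000000, and RPKM divides them by the longest APPRIS principal transcript of GENCODE 29. SE came from the quasi-likelihood F statistic. Nothing in the labels states that replicates came from separate cultures. The p-values therefore reflect only how these libraries scatter, possibly for technical reasons. Replicates differed by more than counting noise in every pair (chi-square per degree of freedom 4.63 to 34.1).

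For GC correction each library's log2 CPM was smoothed against GC content by loess (span 0.5) and the curve entered as an offset, for 16091 genes. Other alternatives were DESeq2 1.42.0, limma-voom (limma 3.58.1), DESeq2 size factors, library size only, other filters, a replicate block and leaving out libraries. Named were the 4 factors with the smallest p in each of 4 groups, 15 factors in any case and the 3 smallest p of each further list. The members and lists were chosen with earlier results of these data known. The main edgeR fit was tested on simulated counts, which held no GC trend and no outlying library. The other steps were not tested in this way. Promoter letters are from RefSeq (GRCh38.p14).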

Additional observations from a re-analysis of the deposited data

How the results depend on the processing

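The count of called genes was 0 with all 6 libraries, 0 with the replicate block (with or without GC correction), 51 without a filter on low counts, 71 with DESeq2, 1 with limma-voom, 22 with GC correction, 1846 (14 initiation factors) with GC correction and EV_Ctrl 2 left out, and 0 to 2324 (0 to 12 factors) leaving out 1 library. The upper end of that last range is the fit without EV_Ctrl 2. Same-numbered libraries deviated with correlations of 0.23, -0.14 and -0.15. These cannot decide whether the numbers pair the libraries, since deviations were taken within each group and EV_Ctrl 2 stood apart from the other controls. The block changed no call among the factors.

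With library size only, 22 factors were positive and the medians were -0.017 for all factors, -0.033 for eIF2 and eIF2B, 0.014 for eIF3, -0.075 for eIF4 and EIF4EBP and -0.080 for elongation and termination. GC correction gave 0.24 for eIF3 and 0.14 for elongation and termination, and with the replicate block as well 0.24 and 0.14. Over all genes these fits had medians of 0.047 and 0.049. GC correction with EV_Ctrl 2 left out gave 0.13 for all factors, 0.14 for eIF2 and eIF2B and 0.28 for eIF3. It gave 0.073 for eIF4 and EIF4EBP, 0.22 for elongation and termination and 0.090 over all genes. Leaving out 1 library moved the eIF4 and EIF4EBP median between -0.0044 and 0.070.

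The sign of the log2 fold change turned for 15 of 51 factors with GC correction and for 15 with EV_Ctrl 2 as the lone control. Among the factors named by the rule, it turned as follows. With GC correction, the same with the replicate block, and the same with EV_Ctrl 2 left out, the values were -0.12, -0.13 and -0.16 for EIF4A2, -0.26, -0.28 and -0.41 for EIF5A2, 0.056, 0.059 and 0.086 for EIF2B5, 0.17, 0.16 and 0.23 for EIF3B, 0.097, 0.095 and 0.094 for EIF4G1 and 0.10, 0.11 and 0.19 for EIF5A. With EV_Ctrl 2 as the lone control they were 0.036 for EIF4EBP2, 0.013 for EIF2B5, 0.031 for EIF3B, 0.090 for EIF4G1, 0.056 for EIF4A1, -0.077 for EIF3E (outside the rule) and -0.15 for EIF5B (outside the rule). With library size only they were -0.018 for EIF2B2 and -0.0089 for EIF6. Leaving out 1 library gave -0.12 to 0.028 for EIF2B5, -0.033 to 0.022 for EIF3B, -0.042 to 0.25 for EIF1, -0.12 to 0.0038 for EIF5A and -0.0077 to 0.16 for EIF6. The cause of these changes was not tested. Depth was lowest in EV_Ctrl 1, at 6833442 counts. EIF4E1B and EIF4EBP3 had only 2 reads each in EV_Ctrl 2 as well, the deepest library.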
